A study of Mus musculus with 14 samples.

Results

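The 10 genes described here, Fabp7, Sox2, Sox3, Dmrta2, Zic1, Lhx2, Tubb2b, Tubb3, Nnat and Nes, are genes of the developing nervous system that were high in blood samples of mouse embryos without Cbfb. They were chosen for that difference, so their levels in Cbfb-/- and Cbfb+/+ blood are a description with no test. Every probe set that the platform annotation assigns to one of them was taken, which gave 14 probe sets of the 45101 on the array, for 10 of the 18194 genes that have a probe set of their own. Peripheral blood of embryos at E12.5 was measured on 14 Affymetrix mouse arrays, each with RNA of 8 to 10 embryos. Values are log2 intensities after RMA, the authors' normalization, so a difference of 1 is a doubling, and differences below are on this log2 scale.

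The first cross, of Cbfb+/MYH11 mice with C57/Bl6 mice, gave embryos with the fusion allele on one chromosome (Cbfb+/MYH11, 4 arrays) and littermates without it (WT, 4 arrays). The second, between Cbfb+/- mice, gave Cbfb-/- embryos (3 arrays) and Cbfb+/+ littermates (3 arrays). Cbfb encodes the partner of the Runx transcription factors, which act in blood formation in the embryo, and the fusion joins it to smooth muscle myosin as in a human acute myeloid leukaemia. Both alleles are germline changes, so they are not limited to blood cells. Arrays of one group are labelled as technical replicates, so the p-values below rest on the spread among arrays, not on that among embryos or litters.

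In the embryo these genes mark successive steps of neural development. Sox2 and Sox3, related HMG-box transcription factors, maintain neural progenitors, and Fabp7 and Nes are made by the radial glia that line the neural tube. Dmrta2 and Lhx2 pattern the dorsal forebrain and Zic1 the dorsal neural tube, while Tubb2b and Tubb3 are the beta tubulins of young neurons. Some have other sites of expression: Lhx2 is needed in the mouse for fetal liver blood formation, and Nes is also made by endothelium and muscle precursors.

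Promoter sequences are shown for 4 of the genes, since Cbfb acts through Runx factors at the DNA. They come from RefSeq (GRCm38.p6), cover 250 bases before to 50 bases from a start used for the gene, and are written on the gene's strand, 5′ to 3′. For Dmrta2 the start used lies within the gene, whose first base is at chr4:109977989. Fabp7 is shown because it had the largest tested difference of the 10 genes in Cbfb+/MYH11 blood, and the others because a searched motif was found in them. Capitals mark the SOX motif (CATTGT or CTTTGT) and, in Tubb3, also an RE1 piece (CAGCACC, part of the element bound by REST, a repressor of neuronal genes), on either strand. The windows lie at chr10:57784673-57784972 (Fabp7), chr3:34649745-34650044 (Sox2), chr4:109977775-109978074 (Dmrta2) and chr8:123411303-123411602 (Tubb3), all on the plus strand.
Fabp7: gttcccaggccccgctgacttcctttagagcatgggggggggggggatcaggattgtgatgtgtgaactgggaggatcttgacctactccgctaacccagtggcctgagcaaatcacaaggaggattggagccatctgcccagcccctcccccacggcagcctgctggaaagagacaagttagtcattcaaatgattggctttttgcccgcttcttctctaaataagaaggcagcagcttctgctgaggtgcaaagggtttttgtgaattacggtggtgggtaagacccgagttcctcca
Sox2: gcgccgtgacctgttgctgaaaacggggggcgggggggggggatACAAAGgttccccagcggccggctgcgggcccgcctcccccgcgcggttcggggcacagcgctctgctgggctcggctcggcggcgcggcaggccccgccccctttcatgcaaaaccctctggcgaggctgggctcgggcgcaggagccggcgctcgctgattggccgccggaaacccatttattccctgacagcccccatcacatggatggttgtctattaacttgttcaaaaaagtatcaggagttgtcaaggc
Dmrta2: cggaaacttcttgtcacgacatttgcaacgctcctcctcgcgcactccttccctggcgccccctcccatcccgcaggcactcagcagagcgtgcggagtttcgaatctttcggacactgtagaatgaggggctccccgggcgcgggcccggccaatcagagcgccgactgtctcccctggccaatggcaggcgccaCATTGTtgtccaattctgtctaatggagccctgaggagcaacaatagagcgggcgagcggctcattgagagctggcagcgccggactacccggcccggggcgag
Tubb3: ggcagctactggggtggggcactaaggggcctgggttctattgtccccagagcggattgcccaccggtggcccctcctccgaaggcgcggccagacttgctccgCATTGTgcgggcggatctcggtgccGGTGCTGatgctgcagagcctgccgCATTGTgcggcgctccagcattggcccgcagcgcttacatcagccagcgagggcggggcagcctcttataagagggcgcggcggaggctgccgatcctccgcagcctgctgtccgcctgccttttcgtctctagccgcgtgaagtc
Of the 10 genes, 8 had a window in the RefSeq table, with 9 windows in all. The Runx core TGTGGT, read on both strands, was in 0 of the 9, and in 16.8% of all 32851 promoter windows. The SOX motif was in 3 of the 9 and in 28.6% of all windows. Its matches began 206 bases before the start used for Sox2, 54 before that used for Dmrta2, and 146 and 96 before that used for Tubb3. The RE1 piece was in 1 of the 9, that of Tubb3 at 121 bases before the start, and in 7.14% of all windows. No searched motif overlapped another, and a match or its absence in these windows says nothing of binding.

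The arrays differed in ways the genotype does not explain. In the first cross, arrays 1 and 2 and arrays 3 and 4 of a genotype resembled each other, with log2 differences across genes that had an SD of 0.11 to 0.28. Across pairs the SD was 0.36 to 0.71, so values are given for each pair. The labelled tissue was borne out by red blood cell genes: all 10 measured ones, with Hbb-y and Alas2 among them, were at 6 or more on every array. Their summed linear signal was 87432 to 95552 on Cbfb+/MYH11 arrays, 87067 to 90760 on WT arrays, 90257 to 90881 on Cbfb-/- arrays and 92946 to 93840 on Cbfb+/+ arrays. A level of 6 on at least 3 of the 14 arrays was the filter for testing, and 7393 genes passed it. Array medians lay between 4.27 and 4.46.

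On Cbfb-/- arrays all 10 genes were above every Cbfb+/+ array, which is the pattern they were chosen for and which 44.3% of all tested genes shared. A change in the share of neural cells in a sample and a change in RNA per cell cannot be told apart in such bulk samples. Tubb2b stood at 8.42, 8.27 and 8.33 on the Cbfb-/- arrays, against 3.83, 3.69 and 3.66 on the Cbfb+/+ arrays, a difference of 4.61. Zic1, a zinc finger factor, stood at 7.73, 7.13 and 7.41 on the Cbfb-/- arrays, against 3.60, 2.62 and 2.31 on the Cbfb+/+ arrays, a difference of 4.58. Both were dim in Cbfb+/+ blood, as were the others except Nnat and Nes.

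Among the forebrain factors, Dmrta2 had 8.24, 8.06 and 8.35 in Cbfb-/- blood, against 3.76, 4.27 and 4.01 in Cbfb+/+ blood, a difference of 4.21. Lhx2 had 9.59, 9.35 and 9.34 in Cbfb-/- blood, against 5.80, 5.41 and 5.51 in Cbfb+/+ blood, a difference of 3.85. The Cbfb+/+ arrays of Lhx2 were themselves above all 4 WT arrays, which read 3.72, 4.17, 3.91 and 3.89. The Sox genes followed, with Sox2 at 5.90, 5.83 and 6.49 in Cbfb-/- blood, against 2.74, 2.04 and 2.62 in Cbfb+/+ blood. Sox3 was at 7.12, 7.42 and 7.25 in Cbfb-/- blood, against 4.23, 3.92 and 3.92 in Cbfb+/+ blood. The differences were 3.61 for Sox2 and 3.24 for Sox3.

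Of the progenitor proteins, Fabp7, a fatty acid binding protein, was at 7.82, 7.80 and 7.72 in Cbfb-/- blood, against 3.66, 4.26 and 3.48 in Cbfb+/+ blood, a difference of 3.98. Nes, an intermediate filament protein, moved least of the 10, with 8.03, 8.05 and 8.15 in Cbfb-/- blood, against 6.89, 6.83 and 7.18 in Cbfb+/+ blood. Its difference was 1.11, and it was above 6 on all 14 arrays. Nnat, an imprinted gene whose membrane protein is abundant in the newborn brain, was at 10.01, 10.01 and 9.99 in Cbfb-/- blood, against 6.70, 6.52 and 6.55 in Cbfb+/+ blood, a difference of 3.41. Tubb3 was at 6.20, 5.56 and 5.59 in Cbfb-/- blood, against 3.75, 3.68 and 3.52 in Cbfb+/+ blood, a difference of 2.13. Sox2 just passed the filter, with 6 reached on 3 arrays, and Tubb3 just missed it, with 2 arrays.

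**Figure D1:**
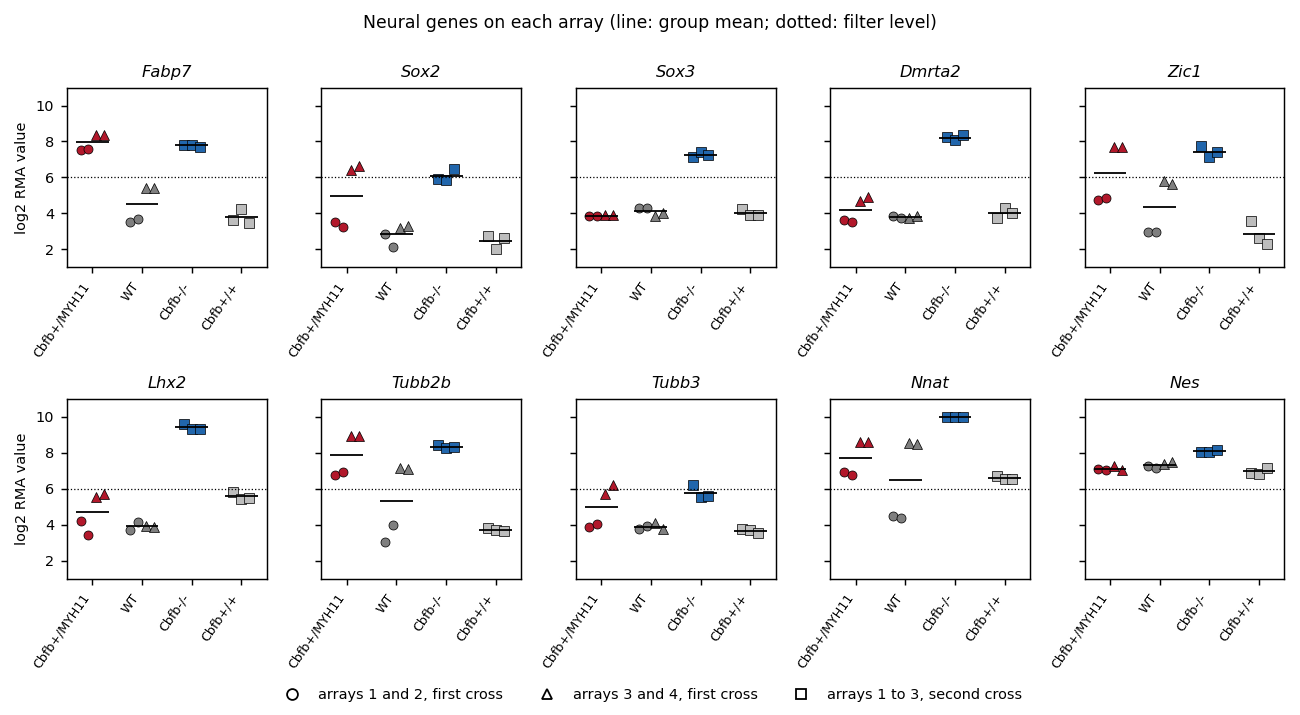
Log2 RMA value (vertical axis) of the 10 neural genes, 1 panel a gene, on the 4 Cbfb+/MYH11, 4 WT, 3 Cbfb-/- and 3 Cbfb+/+ arrays, with the probe set of highest mean for genes with several. Each point is 1 array, the line is the group mean and the dotted line the filter level of 6; Cbfb-/- points lie above all Cbfb+/+ points in each panel, and Cbfb+/MYH11 points split into arrays 1 and 2 (circles) and 3 and 4 (triangles) for Sox2, Zic1, Tubb2b, Tubb3 and Nnat but not for Sox3 or Nes.

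The dimmer probe sets repeated these directions at lower levels, except for one of those of Nes. The dimmer Zic1 probe set averaged 4.15 ± 0.14 on Cbfb-/- arrays and 2.26 ± 0.09 on Cbfb+/+ arrays (SD, n = 3 each). The dimmer Sox3 probe set averaged 5.62 ± 0.06 on Cbfb-/- arrays and 4.89 ± 0.35 on Cbfb+/+ arrays (SD, n = 3 each), a difference of 0.73 where the brighter one gave 3.24. Of the dimmer Nes probe sets, one was higher by 0.19 without overlap and the other differed by -0.01, and neither reached 6 on any array. The size of the Nes difference, 1.11, thus rests on 1 of its 3 probe sets.

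Whether these genes also differ in Cbfb+/MYH11 blood is a comparison that did not choose them, and here 9 of the 10 could be tested. With limma over all 7393 genes, a gene was called where its p, adjusted by Benjamini-Hochberg, was under 0.05 and it changed 1.5-fold or more. Of the 9, 3 were called higher and 0 lower, Fabp7, Sox2 and Tubb2b, while 30.5% of all tested genes were called higher and 5.63% lower. A share of 33.3% among the 9 is close to that background. With the replicate number as a block, which pairs arrays of the 2 genotypes in this cross, 5 of the 9 were called higher, Zic1 and Nnat besides, where 31.5% of all tested genes were. Over all genes, 2255 were called higher and 416 lower, and 1290 higher and 1070 lower after quantile normalization, with the same count of 3 among the 9. Sox3, Dmrta2 and Lhx2 reached 6 only on the Cbfb-/- arrays and were below 6 on all Cbfb+/MYH11 and WT arrays. Of the other 6, 3 were called, and 5 with the block. Outside the Cbfb-/- arrays Sox2 and Zic1 reached 6 only on Cbfb+/MYH11 arrays 3 and 4, so they too passed the filter only with the Cbfb-/- arrays. Sox2 also needed those Cbfb+/MYH11 arrays to pass, so these counts are a description. The median difference of the 9 was 1.26, and that of all tested genes was 0.26.

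Fabp7 rose in Cbfb+/MYH11 blood. It was at 7.52, 7.55, 8.37 and 8.38 on the Cbfb+/MYH11 arrays, against 3.51, 3.68, 5.41 and 5.40 on the WT arrays. Every Cbfb+/MYH11 array was above every WT array. The difference was 3.46, or 10.98-fold with a 95% interval of 5.90 to 20.5 (limma, adjusted p = 2.18e-05), rank 18 of 7393 by size. Within arrays 1 and 2 the difference was 3.94, and within arrays 3 and 4 it was 2.97. Fabp7 was the sole tested gene of the 9 without overlap between the groups, while 39.5% of all tested genes had all Cbfb+/MYH11 arrays above all WT arrays.

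Tubb2b and Sox2 rose too, unevenly between the pairs. Tubb2b was at 6.76, 6.91, 8.93 and 8.96 on the Cbfb+/MYH11 arrays, against 3.06, 3.98, 7.15 and 7.11 on the WT arrays. The lower Cbfb+/MYH11 arrays were below the higher WT arrays, although within each pair the Cbfb+/MYH11 arrays were the higher ones. The difference was 2.57 (limma, adjusted p = 0.0179), with 3.31 within arrays 1 and 2 and 1.82 within arrays 3 and 4. Sox2 was at 3.53, 3.24, 6.40 and 6.63 on the Cbfb+/MYH11 arrays, against 2.83, 2.16, 3.18 and 3.32 on the WT arrays. It was well above the WT level on Cbfb+/MYH11 arrays 3 and 4, and close to it on arrays 1 and 2. The difference was 2.08 (limma, adjusted p = 0.0160), with 0.89 within arrays 1 and 2, all below the filter level, and 3.26 within arrays 3 and 4.

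Both calls were lost when only the 8 arrays of this cross were fitted, with the differences as before (adjusted p = 0.0562 for Sox2 and 0.0654 for Tubb2b), so they rest on the spread of the second cross as well. They were also lost when Cbfb+/MYH11 array 3 or 4 was left out. The Sox2 difference was then 1.59 without array 3 (limma, adjusted p = 0.0547) and 1.52 without array 4 (adjusted p = 0.0528). That of Tubb2b was 2.22 without array 3 (adjusted p = 0.0555) and 2.21 without array 4 (adjusted p = 0.0561). Tubb2b was also lost without WT array 1, at 1.81 (adjusted p = 0.0542), or WT array 2, at 2.12 (adjusted p = 0.0569).

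Zic1 and Nnat were higher on average without passing the test. Zic1 was at 4.75, 4.86, 7.67 and 7.72 on the Cbfb+/MYH11 arrays, against 2.98, 2.95, 5.80 and 5.64 on the WT arrays. Its difference was 1.90 (limma, adjusted p = 0.0579), and nearly the same in either pair, 1.84 within arrays 1 and 2 and 1.97 within arrays 3 and 4. When the replicate number entered as a block, Zic1 was called (adjusted p = 2.85e-05). Nnat was at 6.95, 6.76, 8.61 and 8.59 on the Cbfb+/MYH11 arrays, against 4.49, 4.36, 8.55 and 8.49 on the WT arrays. Its difference was 1.26 (limma, adjusted p = 0.229; 0.0283 with the replicate block, which calls it). That difference came from arrays 1 and 2, at 2.43, while arrays 3 and 4 differed by 0.08.

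The forebrain factors were near the WT level in Cbfb+/MYH11 blood apart from arrays 3 and 4. Lhx2 was at 4.19, 3.41, 5.53 and 5.73 on the Cbfb+/MYH11 arrays, against 3.72, 4.17, 3.91 and 3.89 on the WT arrays, a difference of 0.79 (limma, adjusted p = 0.0952). Dmrta2 was at 3.66, 3.50, 4.71 and 4.92 on the Cbfb+/MYH11 arrays, against 3.83, 3.72, 3.72 and 3.87 on the WT arrays, a difference of 0.41 (limma, adjusted p = 0.194). Both were above all WT arrays on arrays 3 and 4, by 1.73 for Lhx2 and 1.02 for Dmrta2 within that pair, yet never reached 6. Without Cbfb+/MYH11 array 2 both were called, Lhx2 at 1.23 (adjusted p = 0.00395) and Dmrta2 at 0.64 (adjusted p = 0.0384). Tubb3, below the filter, had the same shape, with 3.86, 4.03, 5.73 and 6.23 on the Cbfb+/MYH11 arrays, against 3.77, 3.94, 4.08 and 3.76 on the WT arrays. In a fit of every probe set its difference was 1.08 (limma, adjusted p = 0.0609).

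Sox3 and Nes were not higher in Cbfb+/MYH11 blood. Sox3 lay between 3.83 and 3.92 on the Cbfb+/MYH11 arrays, against 3.86 to 4.31 on the WT arrays, a difference of -0.24 (limma, 95% interval -0.49 to 0.01, adjusted p = 0.0810). Nes lay between 7.05 and 7.25 on the Cbfb+/MYH11 arrays, against 7.18 to 7.48 on the WT arrays, a difference of -0.23 (95% interval -0.43 to -0.02, adjusted p = 0.0553). The dimmer Zic1 probe set gave 1.40 (adjusted p = 0.0793 over all probe sets), and the dimmer Sox3 probe set gave -0.15. Of the dimmer Nes probe sets one gave -0.31 and the other -0.14, so no probe set of either gene was higher.

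Read within pairs, 5 of the 9 genes were called higher within arrays 1 and 2 (Fabp7, Sox2, Zic1, Tubb2b and Nnat), where 37% of all tested genes were. Within arrays 3 and 4, 6 of the 9 were called higher (Fabp7, Sox2, Dmrta2, Zic1, Lhx2 and Tubb2b), where 24.6% of all tested genes were. Dmrta2 and Lhx2 were below 6 on these arrays and Sox2 passed the filter only with Cbfb+/MYH11 arrays 3 and 4, so this count is a description. Of the 6 genes that reached the filter level on other arrays than the Cbfb-/- ones, 5 were called higher within arrays 1 and 2 and 4 within arrays 3 and 4. Sox2 and Zic1, counted in both pairs, passed the filter only with the Cbfb-/- arrays. Both pairs shared 4 of the 6, and 20.8% of all tested genes were called higher in both. If each array pair is taken as 1 pool, 0 of the 9 were called (limma; 1 of them at an unadjusted p under 0.05), and Fabp7 had an adjusted p of 0.106.

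**Figure D2:**
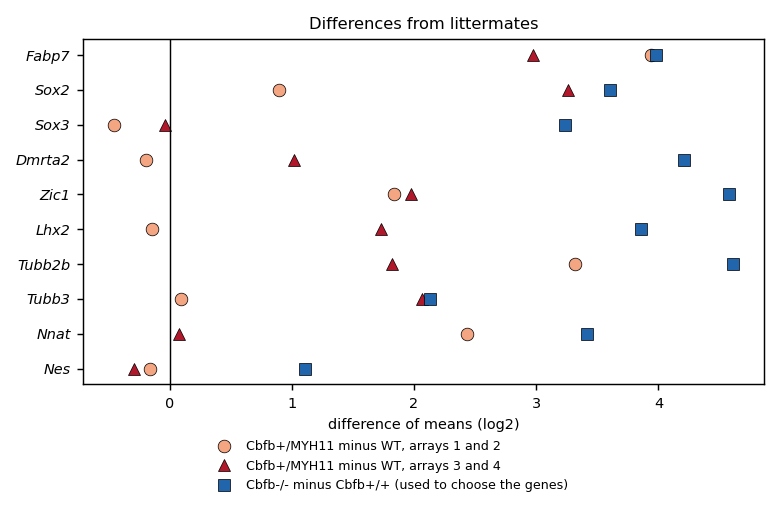
Difference of mean log2 values (horizontal axis) for each of the 10 genes, for Cbfb+/MYH11 minus WT within arrays 1 and 2 (circles) and within arrays 3 and 4 (triangles), and for Cbfb-/- minus Cbfb+/+ (squares), the contrast the genes were chosen on. Fabp7, Zic1 and Tubb2b are well above 0 in both array pairs, Sox2, Dmrta2, Lhx2 and Tubb3 mainly within arrays 3 and 4, Nnat within arrays 1 and 2, and Sox3 and Nes in neither.

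The neural genes also differed between array pairs of 1 genotype, where no genotype is compared. From the mean of arrays 3 and 4 minus that of arrays 1 and 2, 6 of the 9 were higher by 1 or more in Cbfb+/MYH11 blood, against 1.84% of all tested genes. They were Sox2 (3.13), Zic1 (2.89), Tubb2b (2.11), Lhx2 (1.83), Nnat (1.75) and Dmrta2 (1.23). Of 7393 genes, Sox2 and Zic1 had ranks 1 and 2 by this difference. Sox2 passed the filter only with Cbfb+/MYH11 arrays 3 and 4, the arrays that make its step. Lhx2 and Dmrta2 were below 6 on all arrays of this cross, so the count and the ranks are a description. Untested Tubb3 stepped by 2.04.

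In WT blood the same step was 1 or more for 4 of the 9, against 12.2% of all tested genes. They were Nnat (4.10, rank 3 of 7393), Tubb2b (3.61, rank 6), Zic1 (2.76, rank 42) and Fabp7 (1.81, rank 193). Fabp7 and Zic1 were below a level of 6 on all WT arrays. Zic1, Tubb2b and Nnat stepped in both genotypes, as 1.1% of all tested genes did. Sox2 (0.76), Dmrta2 (0.02), Lhx2 (-0.05) and Tubb3 (0.07) stepped by less than 1 in WT blood, and Sox3 (0.06 in Cbfb+/MYH11, -0.36 in WT blood) and Nes (0.08 in Cbfb+/MYH11, 0.21 in WT blood) in neither. Thus WT littermates without the fusion held Nnat at up to 8.55 and Tubb2b at up to 7.15. The pairs come from the arrays' values and not from the labels, so these steps have no test.

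**Figure D3:**
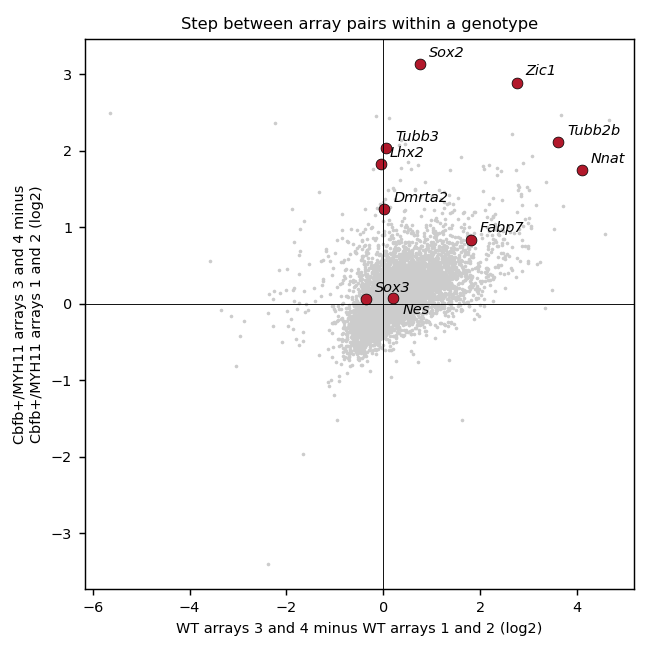
Step between array pairs within a genotype, as the mean log2 value of arrays 3 and 4 minus that of arrays 1 and 2, for Cbfb+/MYH11 blood (vertical axis) and WT blood (horizontal axis). Grey points are all 7393 tested genes and red points the 10 neural genes; Zic1, Tubb2b and Nnat lie far from 0 on both axes, Sox2, Tubb3, Lhx2 and Dmrta2 mainly on the vertical one, and Sox3 and Nes near 0.

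Across all 14 arrays the 9 tested genes followed different courses. On the Cbfb-/- arrays 5 of them, Sox3, Dmrta2, Lhx2, Nnat and Nes, were above every Cbfb+/MYH11 array, and 25.3% of all tested genes were. All 9 were above every WT array, as were 35.1% of all tested genes. The rule used the Cbfb-/- levels, so nothing is read from these counts. The summed linear signal of the 10 genes was 648, 642, 1790 and 1832 on the Cbfb+/MYH11 arrays, against 274, 272, 854 and 836 on the WT arrays. It was 3414, 3162 and 3270 on the Cbfb-/- arrays, against 370, 338 and 361 on the Cbfb+/+ arrays. The Pearson r was 0.97 between Zic1 and Tubb2b, 0.94 between Fabp7 and Tubb2b, and 0.93 between Sox2 and Zic1. It was 0.96 between Sox3 and Dmrta2 and between Dmrta2 and Lhx2, and 0.92 between Sox3 and Lhx2, whereas Fabp7 and Sox3 had 0.40 and Tubb2b and Sox3 0.42. These arrays share pools and group differences, so the coefficients describe the arrays and carry no p.

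Other genes of neural tissue were read from lists written with earlier results of these data known. Of the neural progenitor list, 24 genes had a probe set and 12 passed the filter. In Cbfb-/- blood 6 of the 12 rose and 0 fell against Cbfb+/+ blood, where 19.5% of all tested genes rose and 6.65% fell. Over all genes that is 1443 higher and 492 lower, and 995 higher and 917 lower after quantile normalization, with 6 of the 12 called in either case. With the filter at 7 only 2 of the list were tested and 0 were called, and 0 were called with arrays averaged to pools (limma). The 6 were Hes5, a Notch target (0.93), Dll1, a Notch ligand (1.44), Neurog2, which starts neurogenesis (2.39), Id4, an inhibitor of differentiation factors (1.67), Prom1 (2.38) and Gli3, a Hedgehog pathway factor (1.63). Hes5, Neurog2 and Id4 reached 6 only on the Cbfb-/- arrays, so the count of 6 is a description. Of the other 9, 3 were called, Dll1, Prom1 and Gli3. Outside the Cbfb-/- arrays Dll1 reached 6 only on WT array 3 (6.06), so it too passed the filter only with the Cbfb-/- arrays. The count of 3 is thus also a description. Neurog2 had 6.51, 6.24 and 6.40 in Cbfb-/- blood, against 3.99, 3.97 and 4.01 in Cbfb+/+ blood. The defining genes Pax6 and Sox1 were below 6 on all 14 arrays, Pax6 with 4.47, 4.72 and 4.68 in Cbfb-/- blood and 4.68, 4.70 and 4.68 in Cbfb+/+ blood.

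In Cbfb+/MYH11 blood 0 of these 12 progenitor genes rose against WT blood (limma; 0 were higher at an unadjusted p under 0.05). Among all tested genes 30.5% rose and 5.63% fell there. Msi1, an RNA-binding protein of progenitors, fell, with a difference of -0.65 (adjusted p = 0.00213). It was no longer called after centring arrays on their medians (-0.54), without Cbfb+/MYH11 array 4 (-0.58) or without WT array 2 (-0.58), each under 1.5-fold, or with arrays averaged to pools (limma, adjusted p = 0.159). Within arrays 3 and 4 Neurog2 alone rose, by 1.58, with 3.79, 3.72, 5.55 and 5.48 on the Cbfb+/MYH11 arrays, against 4.32, 3.98, 4.04 and 3.83 on the WT arrays. Neurog2 was below 6 on all of these arrays. In that pair 2 of the 12 progenitor genes were called lower. Among all 7393 tested genes 24.6% were called higher there, and 476 genes lower. On each array 4 progenitor genes reached 6 in Cbfb+/MYH11 blood, against 5, 5, 7 and 5 in WT blood. In Cbfb-/- blood 13, 11 and 12 did, against 5, 6 and 6 in Cbfb+/+ blood.

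Genes of differentiating neurons form the next list. Of 35 with a probe set 11 passed the filter, and in Cbfb-/- blood 5 of them rose and 0 fell: Uchl1 (1.89), Rtn1 (1.76), Map1b (1.68), Ncam1 (1.59) and Gng3 (1.02), where 19.5% of all tested genes rose and 6.65% fell. Uchl1 reached 6 only on the Cbfb-/- arrays, and of the other 10, 4 were called. Rtn1, among these 4, reached 6 elsewhere only on Cbfb+/MYH11 arrays 3 and 4 (7.39 and 7.24). It too passed the filter only with the Cbfb-/- arrays, so the counts of 5 and 4 are a description. The count of 5 was 8 with the replicate block or only the arrays of that cross, 12 with no filter, 2 with the filter at 7 and 0 with arrays averaged to pools. Rtn1 was lost without Cbfb-/- array 2 (limma, adjusted p = 0.0502) and Map1b without Cbfb+/+ array 1 (adjusted p = 0.0539). In Cbfb+/MYH11 blood 0 of the 11 rose over all 4 arrays (limma; 2 were higher at an unadjusted p under 0.05), and 4 were called with the replicate block. Among all tested genes 30.5% rose over all 4 arrays and 31.5% with the block. Within arrays 1 and 2, 0 of the 11 rose (limma; 2 higher at an unadjusted p under 0.05), where 37% of all tested genes rose. Within arrays 3 and 4, 8 of the 11 rose, where 24.6% of all tested genes rose. Of these 8, Uchl1 was below 6 on those arrays, and Stmn4 and Gng3 passed the filter only with Cbfb+/MYH11 arrays 3 and 4. The steps within Cbfb+/MYH11 blood were 1 or more for 8 of the 11, against 1.84% of all tested genes. Their median was 1.14, beside 0.08 over all tested genes. Stmn4 and Gng3 are among the 11 only through the arrays that make this step, so its count and median are a description.

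Counted over all 35, neuron genes at 6 or more numbered 0, 1, 12 and 13 on Cbfb+/MYH11 arrays 1 to 4, against 2, 2, 2 and 3 on the WT arrays. On the Cbfb-/- arrays 10, 9 and 11 were at 6 or more, against 2 on each Cbfb+/+ array. Dcx, a microtubule protein of migrating neurons, was at 4.07, 4.39, 6.16 and 6.16 on the Cbfb+/MYH11 arrays, against 4.14, 3.98, 3.73 and 3.75 on the WT arrays. In Cbfb-/- blood Dcx was at 4.07, 4.28 and 4.40, against 3.46, 3.96 and 3.82 in Cbfb+/+ blood. Nefl, a neurofilament, was likewise at 6.85 and 6.83 on Cbfb+/MYH11 arrays 3 and 4, at 4.51 and 4.15 on arrays 1 and 2, and at 3.73 to 4.84 in WT blood. It was at 4.29, 4.02 and 3.46 in Cbfb-/- blood, against 3.28, 3.89 and 3.58 in Cbfb+/+ blood. Dcx and Nefl thus reached 6 on Cbfb+/MYH11 arrays 3 and 4, as Sox2 did, and on no Cbfb-/- array.

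Map2, a dendrite protein, was at 3.56, 3.45, 6.44 and 6.51 on the Cbfb+/MYH11 arrays, against 3.75, 3.25, 3.47 and 3.75 on the WT arrays. Unlike Dcx it was also higher on the Cbfb-/- arrays, with 5.30, 5.29 and 5.30, against 2.91, 3.24 and 3.35 on the Cbfb+/+ arrays. Stmn2 was at 5.54, 5.32, 7.18 and 7.21 on the Cbfb+/MYH11 arrays, against 5.32, 5.32, 5.88 and 5.91 on the WT arrays. In Cbfb-/- blood it was at 6.34, 6.15 and 6.18, against 5.38, 4.95 and 5.60 in Cbfb+/+ blood, a difference of 0.91 that was not called (limma, adjusted p = 0.111). Dll1, Gli3, Ncam1, Gng3, Nefl, Map2 and Stmn4, and below Emx2, Dmrt3, Tubb6, Tuba4a and Cdkn1c, are named after their values were seen.

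**Figure D4:**
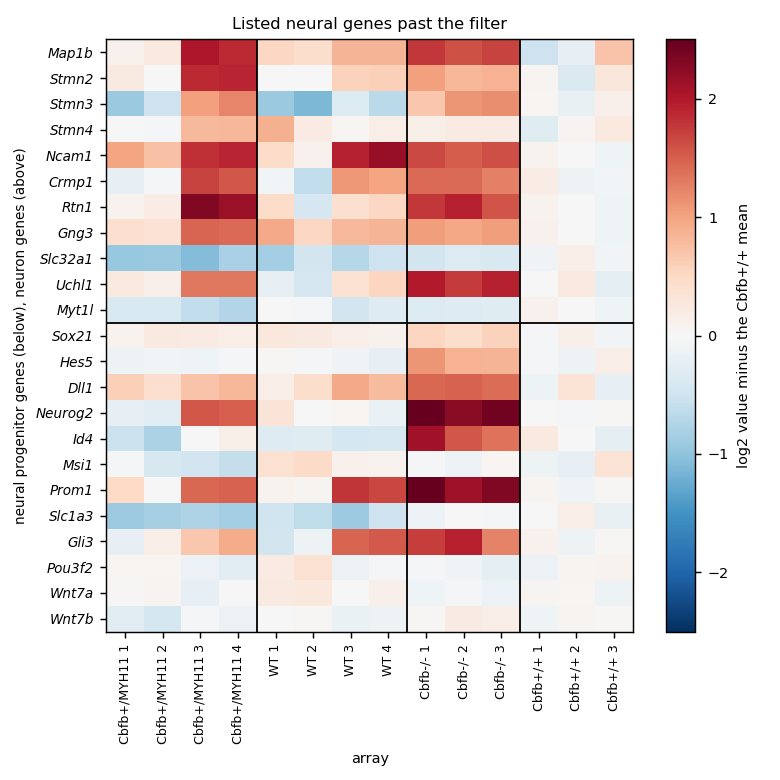
Log2 value minus the Cbfb+/+ mean (colour, from -2.5 to 2.5) of the neuron genes (above the line) and neural progenitor genes (below it) that passed the filter, on each of the 14 arrays (columns). All neuron genes but Slc32a1 and Myt1l are red on Cbfb+/MYH11 arrays 3 and 4, and the 6 called progenitor genes are red on the Cbfb-/- arrays.

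Regional genes were mostly dim. Of 20 measured forebrain patterning genes 1 passed the filter, Emx1, a factor of the dorsal forebrain. It was at 6.83, 6.47 and 6.36 in Cbfb-/- blood, against 5.69, 6.06 and 5.85 in Cbfb+/+ blood, a difference of 0.69 (limma, adjusted p = 0.0205). The call was lost after quantile normalization (0.56, adjusted p = 0.0772) and without Cbfb-/- array 1 (0.55, adjusted p = 0.0855), Cbfb+/+ array 1 (0.60, adjusted p = 0.0725) or Cbfb+/+ array 3 (0.68, adjusted p = 0.0549). Under the filter, Emx2 was at 5.67, 4.91 and 5.11 in Cbfb-/- blood, against 2.78, 2.84 and 2.67 in Cbfb+/+ blood. Dmrt3, a relative of Dmrta2, was at 5.56, 5.52 and 5.98 in Cbfb-/- blood, against 3.92, 3.83 and 3.59 in Cbfb+/+ blood. On the Cbfb+/MYH11 arrays Emx2 lay between 2.80 and 3.61, against 2.35 to 2.95 in WT blood.

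Of 27 measured genes that pattern the midbrain, hindbrain and spinal cord, 0 passed the filter, with the defining En2 between 2.68 and 3.71 and Lbx1 between 5.10 and 5.79 over all arrays. Of the neural crest list 2 of 14 measured genes passed, Sox10 and Dbh, and neither was called in Cbfb+/MYH11 blood (differences -0.18 and -0.22) or in Cbfb-/- blood (-0.22 and -0.13). At an unadjusted p under 0.05 (limma) there were 0 in Cbfb+/MYH11 blood and 1 in Cbfb-/- blood. Of 8 measured eye genes 0 passed the filter, although Lhx2 is also a gene of the early eye.

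Other tubulins and other imprinted genes were read beside Tubb2b, Tubb3 and Nnat. Of 8 tested tubulins, 2 rose and 2 fell in Cbfb+/MYH11 blood: Tubg1 (1.17) and Tubb5 (2.07 within arrays 1 and 2 and 0.93 within arrays 3 and 4) rose, and Tuba1a (-1.11) and Tubb2a (-1.17) fell. Among all tested genes 30.5% rose and 5.63% fell in Cbfb+/MYH11 blood. Tubb2a, whose sequence is very close to that of Tubb2b, was at 8.14, 8.38, 8.76 and 8.73 on the Cbfb+/MYH11 arrays, against 9.62, 9.73, 9.63 and 9.73 on the WT arrays. Its difference had the opposite sign to that of Tubb2b, although both were higher on Cbfb+/MYH11 arrays 3 and 4 than on arrays 1 and 2, and how far probes of the pair share signal was not analysed here. In Cbfb-/- blood 3 tubulins rose, Tubg1 (1.13), Tubb5 (0.94) and Tubb6 (0.77), and 2 fell, Tuba4a (-0.63) and Tubb1 (-2.62), with Tubb1, the beta tubulin of platelets, at 6.63, 6.59 and 6.74, against 9.29, 9.27 and 9.27 in Cbfb+/+ blood. Among all tested genes 19.5% rose and 6.65% fell in Cbfb-/- blood. The rises of Tubb5 and Tubg1 there were lost when any 1 of the arrays of that cross was left out.

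Of 10 tested imprinted genes other than Nnat, 4 rose in Cbfb-/- blood, Mest (3.12), Plagl1 (2.49), Ndn (1.95) and Cdkn1c (1.71), and 0 fell, where 19.5% of all tested genes rose and 6.65% fell. Plagl1 was not called as the mean of all its probe sets (0.99, limma, adjusted p = 0.0708). In Cbfb+/MYH11 blood 0 of the 10 were called over all 4 arrays (limma; 3 at an unadjusted p under 0.05), where 30.5% of all tested genes rose and 5.63% fell. Within arrays 1 and 2, 3 were called higher and 0 lower, and within arrays 3 and 4, 0 were called higher and 4 lower. Over all 7393 tested genes, 2735 were called higher and 564 lower within arrays 1 and 2. Within arrays 3 and 4, 1819 were called higher and 476 lower. The 10 imprinted genes stepped in WT blood as Nnat did, by a median of 1.92 between arrays 3 and 4 and arrays 1 and 2, beside 0.13 over all tested genes. Mest was at 8.98, 9.09, 9.97 and 10.05 on the Cbfb+/MYH11 arrays, against 6.78, 6.83, 10.32 and 10.33 on the WT arrays. Within arrays 1 and 2 it was higher by 2.23, and within arrays 3 and 4 its difference was -0.32, close to the pattern of Nnat.

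Markers of other tissues moved with the array pairs as well. Of 11 measured genes of liver or visceral endoderm, 1, 1, 3 and 3 reached 6 on Cbfb+/MYH11 arrays 1 to 4, against 8, 8, 2 and 3 on the WT arrays. On each Cbfb-/- array 7 did, against 4 on each Cbfb+/+ array. Afp, their defining gene, was at 5.71, 5.77, 8.20 and 8.27 on the Cbfb+/MYH11 arrays, against 11.97, 11.86, 6.33 and 6.20 on the WT arrays. It was at 11.56, 11.48 and 11.59 in Cbfb-/- blood, against 10.42 on each Cbfb+/+ array. The summed signal of the list was 363 to 1097 in Cbfb+/MYH11 blood, 444 to 5327 in WT blood, 4851 to 5308 in Cbfb-/- blood and 1970 to 2031 in Cbfb+/+ blood. WT arrays 3 and 4, which were high in Nnat and Tubb2b, were thus low in Afp, and Cbfb-/- arrays were high in all 3.

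Of 15 measured mesenchyme genes, 6, 6, 9 and 9 reached 6 on the Cbfb+/MYH11 arrays, against 6, 6, 10 and 10 on the WT arrays, with Col1a1 at 6.04 to 7.53 on the Cbfb+/MYH11 arrays and 6.76 to 8.22 on the WT arrays. On the Cbfb-/- arrays 13, 11 and 11 did, against 10, 9 and 10 on the Cbfb+/+ arrays. Their summed signal was 2145 to 3108 in Cbfb+/MYH11 blood, 1213 to 4016 in WT blood, 2865 to 3044 in Cbfb-/- blood and 1720 to 1802 in Cbfb+/+ blood. Of 13 measured muscle genes, 2, 2, 2 and 3 reached 6 on the Cbfb+/MYH11 arrays, against 2, 2, 5 and 5 on the WT arrays. Their summed signal was 687, 697, 853 and 866 on the Cbfb+/MYH11 arrays, against 641, 637, 1938 and 1899 on the WT arrays, so WT arrays 3 and 4 were high in it as in Nnat and Tubb2b. It was 884 to 938 in Cbfb-/- blood, against 497 to 501 in Cbfb+/+ blood. Actc1, an actin of heart and embryonic muscle, was at 7.87, 7.85, 8.37 and 8.39 on the Cbfb+/MYH11 arrays, against 6.54, 6.75, 9.83 and 9.79 on the WT arrays, while the defining Myog was below 6 on every array. Of 14 measured endothelium genes 2 to 4 reached 6 on an array, and of 10 epithelium genes 0 to 3, with their defining Cdh5 and Epcam below 6 on every array. The summed neuron list was 887 to 1940 in Cbfb+/MYH11 blood, 921 to 1178 in WT blood, 1533 to 1567 in Cbfb-/- blood and 909 to 959 in Cbfb+/+ blood. The summed progenitor list was 928 to 1058 in Cbfb+/MYH11 blood, 1080 to 1098 in WT blood, 1544 to 1746 in Cbfb-/- blood and 1032 to 1109 in Cbfb+/+ blood. The part of admixed neural or other embryonic tissue in the levels of the 10 genes was not tested.

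**Figure D5:**
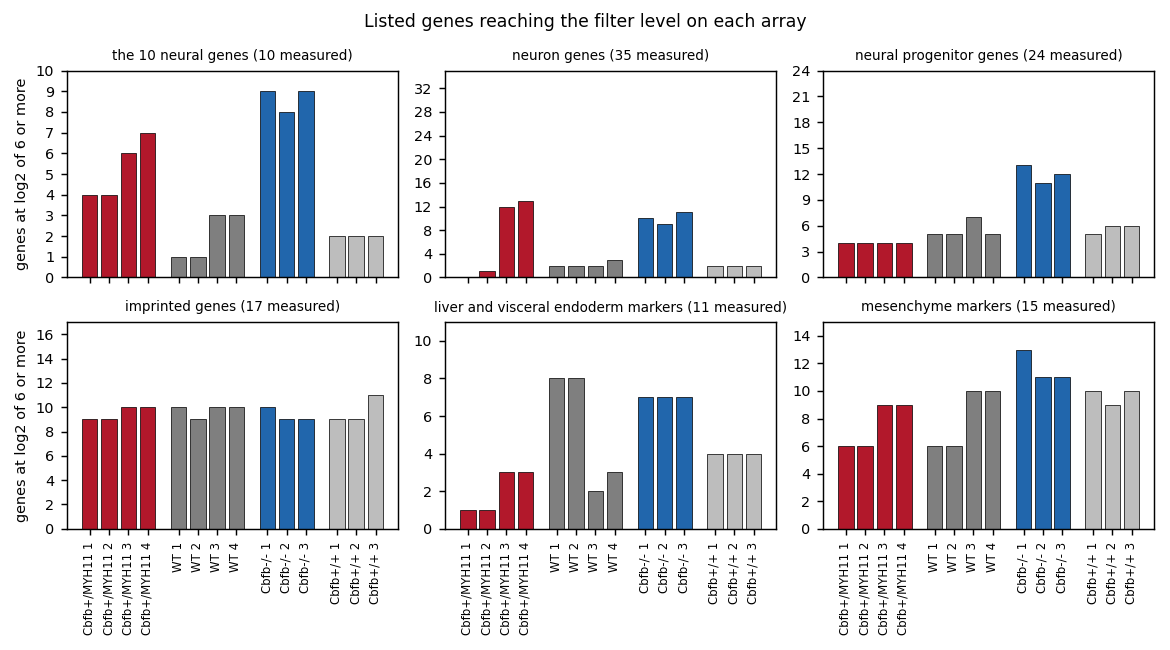
Number of listed genes at a log2 value of 6 or more (vertical axis, up to the number measured) on each array (horizontal axis) for the 10 neural genes and 5 lists. Neuron genes reach 12 and 13 on Cbfb+/MYH11 arrays 3 and 4 and 9 to 11 on the Cbfb-/- arrays, progenitor genes 11 to 13 on the Cbfb-/- arrays and at most 7 on the others, and liver or visceral endoderm genes 8 on WT arrays 1 and 2.

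Among all other tested genes, those most like the mean of the 9 over the 14 arrays were Snapc2 (Pearson r 0.98), Uchl1 (0.98), Sfrp2 (0.98), Pkm (0.97), Krtcap2 (0.97), Nup188 (0.97), Lypla1 (0.96), Fez1 (0.96), Tnfrsf19 (0.96) and Fmnl2 (0.96). Of them Fez1, an axon growth protein, ranged widest, with 5.80, 5.57, 7.08 and 7.27 on the Cbfb+/MYH11 arrays, against 5.55, 5.07, 5.48 and 5.59 on the WT arrays. It was at 8.28, 7.73 and 8.25 in Cbfb-/- blood, against 4.41, 4.48 and 5.06 in Cbfb+/+ blood. For single genes the closest were Hes5 and Pax1 for Sox3 (both 0.97), Rcor2 and Mpped2 for Dmrta2 (both 0.97), Id4 (0.97) and Scaf1 (0.96) for Lhx2, and Rtn1 and Kif5c for Sox2 (both 0.96). Fabp7 was closest to Cct8 and Pfdn4 (both 0.98), subunits of chaperones for actin and tubulin, and Zic1 to Actg1 and Ptbp2 (both 0.97). Tubb2b was closest to Pgrmc1 and Nckap1 (both 0.99), Nnat to Tspan6 and Pcbp4 (both 0.99), and Nes to Pacs1 (0.95) and Eid2 (0.94). The coefficients are over arrays in 4 groups and say nothing of shared control.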

How the data were processed

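Biotin-labelled total RNA of pooled blood was hybridized to the arrays, per the labels' protocols. By the submitters' processing notes, the authors made the deposited log2 values with RMA in Affymetrix Expression Console, whose versions are not given in the sources used here. The deposited values were used without further normalization. Probe sets were named by the platform annotation: 34958 had 1 symbol, and 932 with several were left out. A gene took its probe set with the highest mean. Group means of all 14 arrays were fitted with limma 3.58.1 in R 4.3.3 (4 groups, no covariate), with p-values adjusted over 7393 genes by Benjamini and Hochberg, and the fit was tested on simulated data. The members, the 14 other lists and the rule for naming genes were chosen with earlier results of these data known. That rule took the 10 members, the genes most correlated with them, defining markers, and up to 6 genes a list with the smallest p or largest difference. Same-numbered arrays of the first cross deviated together across genes (r 0.52, 0.41, 0.50 and 0.50). Differently numbered arrays of the same array pair did so to a like degree (r 0.42 to 0.51). The number thus marks the array pair there and no closer match. In the second cross same-numbered arrays did not deviate together (0.03, 0.01 and 0.02). Alternatives changed the filter, normalization, probe set rule, fit and arrays used. The number of arrays limits the precision, and figures were drawn with matplotlib 3.10.9.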

Additional observations from a re-analysis of the deposited data

Results flagged for a closer look

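Nes and Sox3 each had 1 array apart from the other 3 in Cbfb+/MYH11 blood. For the brightest Nes probe set, array 3 was at 7.25 and the others at 7.05 to 7.08, a gap of 0.866 of the group's range. For the dimmer Sox3 probe set, array 3 was at 4.36 and the others at 4.15 to 4.16, a gap of 0.948 of the range, all below the filter level. Chance singles out about 1 in 20 such groups. One dim Nes probe set was lower on every Cbfb+/MYH11 array than on any WT array (-0.31) and higher on every Cbfb-/- array than on any Cbfb+/+ array (0.19), a difference that was not tested.

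For 32 of the 84 tested genes of the lists beside the members, the effect of the fusion differed from that of the loss of Cbfb. They passed the test of that difference (limma, adjusted over 7393 genes), with 24 lower and 8 higher. The share of all tested genes that passed is not given here, so nothing is read from the count. The difference in effect is that of Cbfb+/MYH11 and WT minus that of Cbfb-/- and Cbfb+/+. It is given for 8 genes of the progenitor, tubulin and imprinted lists taken by the naming rule, and for 6 other genes named in the report. Among progenitor genes it was -1.80 for Neurog2 (adjusted p = 0.0300), -2.42 for Prom1 (adjusted p = 0.0146) and -1.60 for Id4 (adjusted p = 0.00259). It was -0.95 for Hes5 (adjusted p = 0.000232), -1.39 for Dll1 (adjusted p = 0.00154) and -1.84 for Gli3 (adjusted p = 0.0484). Neurog2, Id4, Hes5 and Dll1 passed the filter only with the Cbfb-/- arrays, where they are high, so their values are a description. Among tubulins it was -1.17 for Tuba1a (adjusted p = 0.000132), -0.66 for Tubb2a (adjusted p = 0.0166) and 3.08 for Tubb1 (adjusted p = 2.29e-05), with -1.14 for Tubb6 (adjusted p = 0.0171) and 0.66 for Tuba4a (adjusted p = 0.00515). Among imprinted genes it was -2.98 for Plagl1 (adjusted p = 0.0353) and 0.83 for Grb10 (adjusted p = 0.0110). For the muscle gene Actc1 it was -3.11 (adjusted p = 0.0327). The naming rule also used the size of the Cbfb-/- minus Cbfb+/+ difference, which enters this one, so the values named are a description. The crosses differ as well as the alleles, and these cannot be told apart.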

How the results depend on the processing

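Slide and scan date could not be tried, since neither is given. The differences of the members kept their sign wherever either value was called. Of their values under other settings in Cbfb+/MYH11 against WT, 189 kept their side of the threshold, 13 gained one and 11 lost it. With the replicate block 5 members were called, Zic1 and Nnat joining the 3, and it changed no other member's call; with only the arrays of the cross 1 was called, within arrays 1 and 2 it was 5, within arrays 3 and 4 it was 6, and with arrays averaged to pools 0. Leaving out 1 array gave 1 to 6. Over all genes, 2671 were called in Cbfb+/MYH11 blood (2255 higher, 416 lower) and 1935 in Cbfb-/- blood (1443 higher, 492 lower). In Cbfb+/MYH11 blood, pools gave 18 (17 higher, 1 lower; 2152 at an unadjusted p under 0.05), probe set means 1701 (1425 higher, 276 lower) and every probe set without a filter 5551 (4379 higher, 1172 lower). Quantile normalization gave 1290 higher and 1070 lower, and gave a median of all differences of -0.04, where it was 0.26 as deposited. The count of lower genes was 759 without a filter, 276 with the filter at 7 and 263 with arrays centred. In Cbfb-/- blood, pools gave 0 in all, 0 higher and 0 lower (336 at an unadjusted p under 0.05), and every probe set 4041 (2847 higher, 1194 lower). Probe set means gave 924 higher there, and quantile normalization 917 lower. With the arrays of the second cross as 1 pool a group, a group has 1 value and the spread comes from the first cross. Levels below the filter of 6 may be background, which limits what can be said of Sox2, Tubb3 and the dimmer probe sets.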
